A study of Danio rerio with 6 samples.

Results

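The vitellogenin genes vtg1 to vtg7 and the nuclear estrogen receptor genes esr1, esr2a and esr2b were examined in zebrafish liver. These 10 genes were found by symbol, ignoring case, among the 30628 Ensembl genes of the count table. The name table gives the human symbol ESR2 to both beta receptor genes and does not say which is esr2a and which esr2b. They are therefore called by their identifiers, ENSDARG00000016454 and ENSDARG00000034181. RNA from 6 liver samples was sequenced, 3 from fish with the genotype ATG5 overexpression and 3 from WT fish. The ATG5 line carries a human ATG5 transgene under a LexOP operator, and the fabp10a promoter, active in hepatocytes, drives the mifepristone-activated LexPR regulator together with mCherry. All 6 samples received mifepristone and carry the time label 2 wpi. The labels give neither the sex nor the age of the fish, nor whether a sample is 1 animal or a pool, so values are shown for each library. Every p-value here covers the variation among these 6 samples alone, which may be technical. The series' design text calls the groups hepatocellular carcinoma and normal liver. No group had the transgene without the drug, and the human ATG5 transcript was not analysed here.

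Vitellogenins are large lipid-carrying phosphoproteins that the liver of an egg-laying fish secretes into the blood and that growing oocytes take up and cleave into yolk. In the hepatocyte, estradiol binds the receptor encoded by esr1, which then activates both the vitellogenin genes and esr1 itself. The family is known for high expression in livers of mature females and for low expression in males unless estrogen is present. Mifepristone, which every fish here received, is known as an antagonist of progesterone and glucocorticoid receptors.

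Among the vitellogenins, vtg1 and vtg4 were higher in ATG5 livers, vtg5 held most of the family's counts in both groups, vtg2, vtg3 and vtg7 had at most 83 counts in any library, and vtg6 had none. The receptor gene esr1 went the other way and was lower in ATG5. Levels are given as CPM, counts scaled to the size of the library and corrected with TMM factors. A gene is called when edgeR's quasi-likelihood test gives an adjusted p under 0.05 over all genes tested. Of the 8 members that passed the low-count filter, 2 were called higher and 1 lower. Over the 20366 genes tested, 17.3% were called higher and 13.2% lower, 30.6% in all. Without TMM factors, that is, with counts scaled by library size alone, 53.3% were higher and 2.84% lower.

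The paralogue vtg1 (ENSDARG00000092233) had counts of 11, 15 and 8 in the WT libraries and of 269, 1328 and 1242 in the ATG5 libraries. On the scaled level these were 0.44, 0.449 and 0.317 CPM in WT and 5.01, 26.9 and 20.8 CPM in ATG5. Every ATG5 library stood above every WT library, and ATG5 replicate 1 was the lowest of its group. The low-count filter needed 3 libraries over its minimum. For vtg1 there were 3 such ATG5 libraries and 2 such WT libraries, so the gene needed ATG5 to pass. The log2 fold change was 5.28 ± 0.69 (SE, n = 3 per group, edgeR adjusted p = 0.00366), about 38.9-fold. It was 6.17 without TMM factors (adjusted p = 0.00106), and limma-voom alone among the alternatives gave no call, with a log2 fold change of 5.07 (adjusted p = 0.0643).

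The second gene called higher was vtg4 (ENSDARG00000078429). Its counts were 4, 0 and 6 in WT and 59, 126 and 439 in ATG5, or 0.16, 0 and 0.238 CPM against 1.1, 2.55 and 7.36 CPM. The groups did not overlap, and the ATG5 libraries spread widely among themselves, with a mean of 3.67 ± 3.28 CPM (SD, n = 3) against 0.133 ± 0.121 CPM in WT. The log2 fold change was 4.40 ± 1.06 (SE, edgeR adjusted p = 0.0243). This gene passed the low-count filter through the ATG5 libraries only, so it had to differ to be tested. Leaving out ATG5 replicate 3 ended the call (adjusted p = 0.0726), as did fits without WT replicate 1 (0.0806) and without WT replicate 3 (0.0551), and with limma-voom (0.119).

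By contrast, vtg5 (ENSDARG00000092126) stood at 407, 293 and 581 CPM in WT and at 107, 445 and 512 CPM in ATG5. The groups overlapped, and ATG5 replicate 1 was the lowest library of all. The log2 fold change was -0.27 ± 0.58 (SE, edgeR adjusted p = 0.757), and its sign rested on the scaling and the libraries used. It was 0.69 without TMM factors (adjusted p = 0.335), 0.14 without ATG5 replicate 1 and 0.01 without WT replicate 3.

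**Figure D1:**
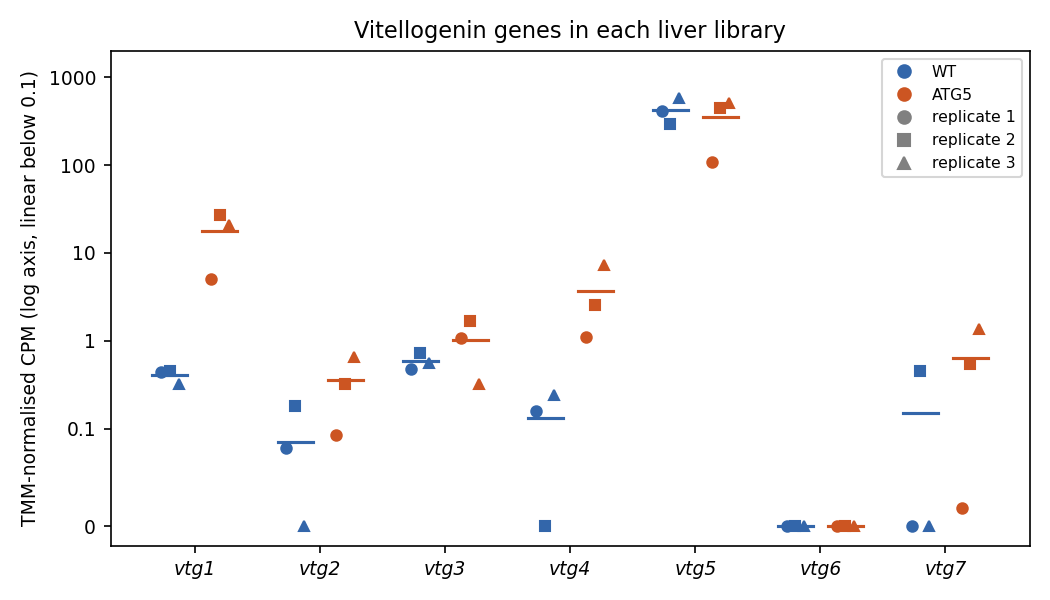
Level of each vitellogenin gene in each liver library, in TMM-normalised CPM on a log axis that is linear below 0.1; symbols mark replicates, colours the groups and short lines the group means (n = 3). The groups are separate for vtg1 and vtg4 and overlap for vtg5, and vtg6 lies at 0 in all 6 libraries.

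The remaining vitellogenins had few counts. The gene vtg3, known to encode a vitellogenin without the serine-rich phosvitin domain, had counts of 12, 24 and 14 in WT and 57, 83 and 19 in ATG5. Its scaled levels overlapped, with ATG5 replicate 3 below all WT libraries at 0.319 CPM, and the log2 fold change was 0.75 ± 0.59 (SE, edgeR adjusted p = 0.383). It ran from 0.21 without ATG5 replicate 2 to 1.13 without ATG5 replicate 3, and was 1.65 without TMM factors, with no call. For vtg7 the counts were 0, 15 and 0 in WT and 1, 27 and 81 in ATG5, with a log2 fold change of 1.74 ± 1.46 (edgeR adjusted p = 0.407). It was 0.64 without ATG5 replicate 3 and 3.87 without WT replicate 2, again with no call. WT replicate 2 and ATG5 replicate 1 crossed over, so these groups overlapped too. Neither vtg2 nor vtg6 passed the filter. The counts of vtg2 were 2, 6 and 0 in WT and 5, 16 and 39 in ATG5, and vtg6 had no count in any library, which allows at most 0.0503 to 0.12 CPM per library at 3 counts. A further family gene outside the 10, vtg8, had counts of 12, 0 and 16 in ATG5 and none in WT.

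Paralogues with similar sequences can share reads, and the deposited counts are estimates that divide such reads between genes, so the family was also summed. The sum of vtg1 to vtg7 was 409, 295 and 582 CPM in WT and 114, 477 and 543 CPM in ATG5. As a share of all counts it was 0.0225% to 0.0417% in WT libraries and 0.0156% to 0.0723% in ATG5 libraries. The groups overlapped on both scales. The log2 ratio of the group means was -0.18 with TMM scaling and 0.78 without TMM factors, so the sum has no direction that holds across scalings.

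The division of that sum among the paralogues differed between the groups, and this division does not depend on the scaling of the libraries. The vtg5 gene took 99.7%, 99.4% and 99.8% of the vitellogenin counts in WT and 93.6%, 93.3% and 94.4% in ATG5. The share of vtg1 was 0.111%, 0.153% and 0.0551% in WT and 4.37%, 5.63% and 3.84% in ATG5. The means were 0.106% ± 0.0489 and 4.61% ± 0.923 (SD, n = 3), and the groups lay far apart. ATG5 replicate 1, with the lowest sum, had a vtg1 share between those of the other two ATG5 libraries. These shares were computed after the single genes had been seen, and whether reads of one paralogue were counted for another was not tested. In the RefSeq order of genes on the build GRCz12tu, which is not the build of the counts, vtg5, vtg4, vtg6, vtg7, vtg2 and vtg8 lie in a cluster. They lie in that order, with other genes between some of them, and vtg3 lies on another chromosome. No vtg1 was found there by symbol, so its place is not given.

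**Figure D2:**
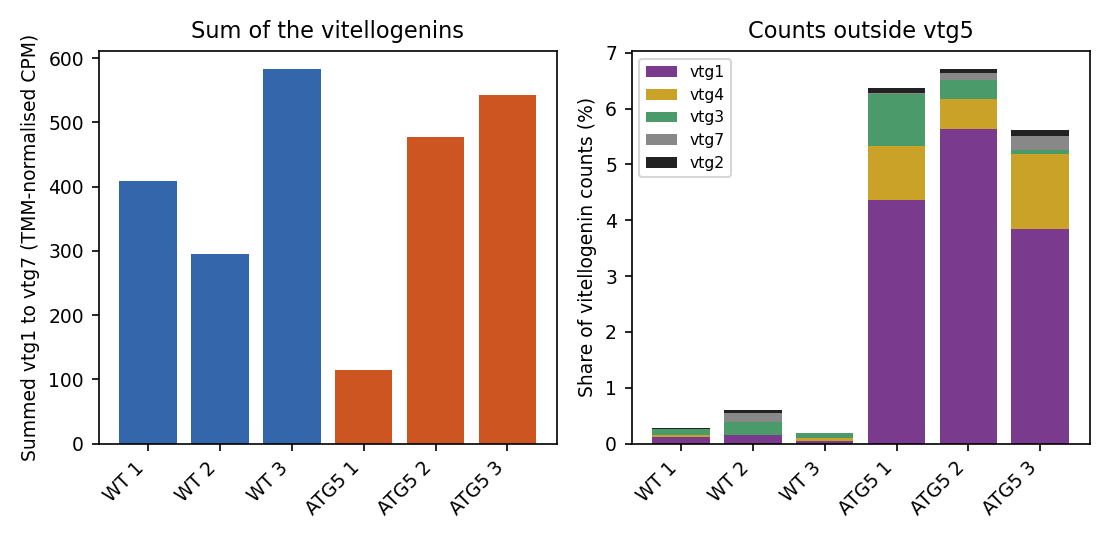
Left, summed level of vtg1 to vtg7 in each library (TMM-normalised CPM); right, share of the summed vitellogenin counts that falls outside vtg5, in percent, stacked by gene. The sums of the groups overlap, while the share outside vtg5 is 0.192% to 0.604% in WT and 5.62% to 6.70% in ATG5.

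The alpha receptor gene esr1 (ENSDARG00000004111) fell in ATG5. It stood at 13.2, 24.1 and 6.63 CPM in WT and at 2.63, 3.04 and 1.38 CPM in ATG5, with counts of 329, 806 and 167 against 141, 150 and 82. The groups did not overlap, and the WT libraries differed from one another more than the ATG5 libraries did. The log2 fold change was -2.62 ± 0.54 (SE, n = 3 per group, edgeR adjusted p = 0.0145), about 6.15-fold lower. The call held under all 15 alternatives, where the log2 fold change lay between -2.98 and -1.69 and the adjusted p between 5.94e-06 and 0.0464. The same 3 ATG5 libraries held the higher vtg1 and vtg4. Among WT libraries, replicate 2 had the highest esr1 and the lowest vtg5 and vtg4, but also the highest vtg1, vtg2, vtg3 and vtg7. Among ATG5 libraries, replicate 2 had the highest esr1, vtg1 and vtg3, and replicate 3 the highest vtg2, vtg4, vtg5 and vtg7. These orders were picked out after the values were seen and were not tested. Some germ cell and testis markers, singled out after their values were seen, were also highest in WT replicate 2 and others were not. DDX4, a germ cell helicase gene, had counts of 26, 38 and 0 in WT and 3, 3 and 6 in ATG5, and insl3, a Leydig cell hormone gene, had 18, 34 and 1 in WT and at most 2 in ATG5. DAZL, a germ cell RNA-binding protein gene, had counts of 14, 6 and 2 in WT and 0, 4 and 4 in ATG5. For bmp15, an oocyte growth factor gene, counts were 11, 7 and 1 in WT and 8, 10 and 11 in ATG5. Both were highest in WT replicate 1 among the WT libraries. The oocyte marker buc had 2, 1 and 0 counts in WT and 13, 18 and 8 in ATG5, and ZAR1 had 1, 0 and 0 against 5, 1 and 13. For amh, a Sertoli cell hormone gene, counts were 35, 38 and 43 in WT and 78, 43 and 70 in ATG5. On the scaled level amh was highest in WT replicate 3, at 1.71 CPM, and lowest in ATG5 replicate 2, at 0.87 CPM. The summed level of 12 testis markers was 14.3, 17.3 and 6.55 CPM in WT and 16.4, 6.01 and 14.7 CPM in ATG5, so the groups overlapped in the sum. Much of it was gsdf, a gonadal growth factor gene of both the testis and the ovary soma lists, and without gsdf the sum was 12.6, 11.6 and 3.29 CPM in WT and 4.86, 4.57 and 7.43 CPM in ATG5, an alternative chosen after seeing the data. The part of such cells in the difference of esr1 was not tested.

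Neither beta receptor gene was called. ENSDARG00000016454 stood at 28.2, 33.3 and 48.8 CPM in WT and 29.2, 33.1 and 30.5 CPM in ATG5, a log2 fold change of -0.25 ± 0.22 (SE, edgeR adjusted p = 0.439). It turned to 0.70 without TMM factors, and was then called higher (adjusted p = 0.0467). ENSDARG00000034181 stood at 31.6, 52 and 41.4 CPM in WT and 20.5, 22.6 and 34.4 CPM in ATG5. The groups overlapped in WT replicate 1 and ATG5 replicate 3, and the log2 fold change was -0.69 ± 0.27 (edgeR adjusted p = 0.104). Without ATG5 replicate 3 it was -0.97 and called lower (adjusted p = 0.0494), and without TMM factors it turned to 0.24 (adjusted p = 0.507).

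Within a library, the share of esr1 in the counts of all 3 receptor genes needs no scaling. It was 18.1%, 22.0% and 6.84% in WT and 5.01%, 5.15% and 2.08% in ATG5, with means of 15.6% ± 7.88 and 4.08% ± 1.73 (SD, n = 3). The lowest WT library, replicate 3, lay above the highest ATG5 library, replicate 2. No gene length was used, so these are shares of counts and not of transcripts.

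**Figure D3:**
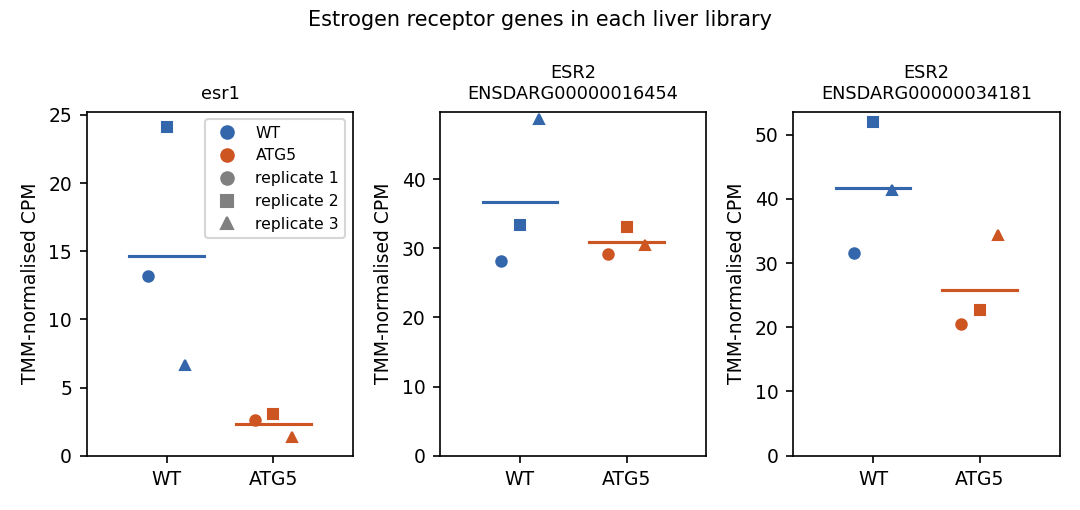
Level of esr1 and of both ESR2 genes in each liver library (TMM-normalised CPM, linear axes from 0); symbols mark replicates and short lines the group means (n = 3). For esr1 the ATG5 libraries lie at 1.38 to 3.04 CPM, below all WT libraries, and for both ESR2 genes the groups overlap.

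Most hepatocyte markers, like esr1, were lower in ATG5. Within each group of 3 libraries, replicate 2 had the highest esr1 and the lowest hepatocyte marker sum, and replicate 3 the reverse. This order was picked out after the values were seen and was not tested. The summed level of 19 hepatocyte markers was 282259 to 345299 CPM in WT and 86278 to 117538 CPM in ATG5, and 15 of the 19 fell and 0 rose (median log2 fold change -1.71, against 0.03 over all tested genes, where 13.2% were called lower). Without TMM factors, 11 fell, against 2.84% of all genes, and the median was -0.77, while the median of all tested genes was 0.95. Fibrinogen beta, FGB, fell from 9779 ± 1204 to 2570 ± 354 CPM (SD), and the plasma protein genes ahsg1, fga and serpina1l had log2 fold changes of -3.06, -1.77 and -2.42 (edgeR adjusted p = 0.00312, 0.00365 and 0.00257). Among the defining markers, fabp10a was present throughout, at 4899 to 13258 CPM, and did not pass the test (log2 fold change -0.91 ± 0.32, adjusted p = 0.0764). It was called lower by DESeq2 (adjusted p = 0.00944), by limma-voom (0.049) and without ATG5 replicate 3 (0.043), and turned to 0.04 without TMM factors. HNF4A, a defining marker like fabp10a and FGB, was called lower (log2 fold change -1.33 ± 0.20, edgeR adjusted p = 0.00539), though not without TMM factors (0.124). In bulk tissue, fewer hepatocytes and less RNA per hepatocyte cannot be told apart, and their part in the fall of esr1 was not tested.

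Among 8 tested genes known as estrogen targets in fish or mammals, 2 were higher and 2 lower (median log2 fold change -0.26), where 17.3% and 13.2% of all genes were. Without TMM factors 4 rose and 0 fell (median 0.68), near the 53.3% and 2.84% of all genes, so neither count sets these few genes apart. The gene nots, for nothepsin, a liver aspartic protease of egg-laying fish, had counts of 80, 28 and 16 in WT and 19, 9 and 7 in ATG5, a log2 fold change of -2.59 ± 0.74 (edgeR adjusted p = 0.0408). It had 2 ATG5 libraries and 3 WT libraries over the low-count filter's minimum, so it needed WT to pass. It was not called under 8 of 15 alternatives, among them leaving out any ATG5 library or WT replicate 1 or 2. The corepressor gene nrip1b had a log2 fold change of -1.25 ± 0.17 (adjusted p = 0.00413), which did not pass without TMM factors (0.212). MYB, a transcription factor gene of blood progenitors and an estrogen target in human breast cells, rose by 3.17 ± 0.50 (adjusted p = 0.00659). With 3, 9 and 2 counts in WT, MYB passed the low-count filter through the ATG5 libraries only, so it had to differ to be tested. CTSD, for the lysosomal protease cathepsin D, rose by 1.68 ± 0.50 (adjusted p = 0.0461). The call of CTSD was lost under 6 of 15 alternatives, without ATG5 replicate 1 or 2 or WT replicate 1 or 2 among them. The target GREB1, named for its role after its values were seen, stood at 3.44, 11.1 and 1.23 CPM in WT and 3.22, 1.82 and 1.90 CPM in ATG5 and did not pass (adjusted p = 0.281). WT replicate 2 was the highest library for GREB1 as for esr1. Among WT libraries, MYB too was highest in replicate 2, nrip1b and CTSD were lowest there, and nots was highest in replicate 1. A link of these genes to esr1 was not tested.

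Of 30 tested coregulator and chaperone genes of the receptor, 13 fell and 4 rose (median log2 fold change -0.63), against 13.2% and 17.3% of all genes. Without TMM factors 1 fell and 12 rose (median 0.31), against 2.84% and 53.3%. FOXA2, a pioneer factor at liver enhancers, fell from 91.1 ± 10.8 to 29.3 ± 3.88 CPM (edgeR adjusted p = 0.00208), and remained called without TMM factors (log2 fold change -0.68, adjusted p = 0.0163). The coactivator gene NCOA2 fell by 1.21 on the log2 scale (adjusted p = 0.00321), a call lost without TMM factors (0.226). MED1, a Mediator subunit that binds nuclear receptors, rose from 15.3 ± 2.59 to 102 ± 36.1 CPM (adjusted p = 0.0027). PTGES3 (ENSDARG00000089626), which encodes the co-chaperone p23 of steroid receptors, rose from 5.40 ± 0.933 to 37.0 ± 2.4 CPM (adjusted p = 0.000691).

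Of 10 tested genes of related receptors, 5 fell and 1 rose (median -0.93), against 13.2% and 17.3% of all genes. Without TMM factors 1 fell and 2 rose (median 0.02), against 2.84% and 53.3%. ESRRA, an orphan receptor that regulates energy metabolism, fell by 1.32 on the log2 scale (edgeR adjusted p = 0.00324) and PAQR7, a membrane progestin receptor gene, by 1.55 (adjusted p = 0.0107), and neither passed without TMM factors (0.0931 and 0.0835). PGRMC1, a heme-binding membrane protein gene, had a log2 fold change of -0.79 ± 0.19 (adjusted p = 0.0247) that turned to 0.16 without TMM factors, and whose call was lost without any 1 of the ATG5 libraries or without WT replicate 1 or 3. The progesterone receptor gene PGR, an estrogen target and a target of mifepristone, had counts of 0, 4 and 0 in WT and 10, 8 and 15 in ATG5 and was not tested.

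Of 34 tested genes that make, convert or clear steroids, 7 fell and 3 rose (median -0.57), against 13.2% and 17.3% of all genes. Without TMM factors 4 fell and 9 rose (median 0.30), against 2.84% and 53.3%. The estradiol-forming enzyme gene hsd17b1 stood at 27.0, 27.1 and 26.9 CPM in WT and 4.97, 5.08 and 7.77 CPM in ATG5. The log2 fold change was -2.17 ± 0.22 (edgeR adjusted p = 0.00178), and it held under all 15 alternatives. The reductase gene hsd20b2 had a log2 fold change of -1.97 ± 0.27, the drug- and steroid-oxidising cytochrome gene cyp3a65 one of -2.57 ± 0.36, and HSD17B7, of cholesterol synthesis, one of -1.54 ± 0.29 (adjusted p = 0.00404, 0.00426 and 0.0112). Of these, HSD17B7 was not called without TMM factors (adjusted p = 0.126). The aromatase gene CYP19A1, of the enzyme that makes estrogens from androgens, had no count in any library. The gene shbg, for the plasma carrier of sex steroids, stood at 863 ± 257 CPM in WT and 507 ± 69.9 in ATG5 (SD) and did not pass the test (adjusted p = 0.071). DESeq2 called it lower (adjusted p = 0.018), and without TMM factors the log2 fold change turned from -0.77 to 0.17.

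The yolk precursors belong to the large lipid transfer family, whose apolipoprotein B members carry lipid in plasma lipoproteins. The apolipoprotein B genes APOB and apobb.1 fell, with log2 fold changes of -1.66 ± 0.21 and -1.76 ± 0.28 (edgeR adjusted p = 0.00327 and 0.00675). Neither apobb.2 nor MTTP was called, so 2 of the 4 tested fell and 0 rose (median -1.20), against 13.2% and 17.3% of all genes. Without TMM factors, 2 fell and 1 rose (median -0.27), against 2.84% and 53.3%.

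Of 10 tested genes for yolk uptake and cleavage, 4 rose and 4 fell (median 0.07), against 17.3% and 13.2% of all genes. Without TMM factors 5 rose and 2 fell (median 1.04), against 53.3% and 2.84% of all genes, whose median was 0.95. The protease genes CTSB, ctsbb and ctsl.1 rose, with log2 fold changes of 1.68 ± 0.17, 4.83 ± 0.60 and 4.05 ± 0.54 (edgeR adjusted p = 0.00178, 0.00323 and 0.00391). With at most 1 count in a WT library, ctsl.1 passed the filter through ATG5 only, so it had to differ to be tested. The filter needed 3 libraries over its minimum. With 3, 3 and 10 counts in WT, ctsbb had 1 such WT library and 3 such ATG5 libraries, so it too needed ATG5 to pass. The low-density lipoprotein receptor gene ldlra fell from 832 ± 383 to 83.9 ± 6.12 CPM (adjusted p = 0.00274). VLDLR, the gene of the oocyte receptor for vitellogenin, named for that role, stood at 7.28, 12.1 and 15.8 CPM in WT and 2.12, 4.96 and 2.67 CPM in ATG5 (log2 fold change -1.84 ± 0.42, adjusted p = 0.0206). It was not called without TMM factors (0.132), nor without ATG5 replicate 1 or 3 or WT replicate 2 or 3, at adjusted p of 0.0526 to 0.0658.

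In the list for secretion and phosphorylation of secreted proteins 5 of 18 tested genes were lower and 2 higher (median -0.34). Over all genes the shares were 13.2% and 17.3%. Without TMM factors 0 were lower and 7 higher (median 0.62), against 2.84% and 53.3% of all genes. Both genes of FURIN, a protease of the secretory pathway (ENSDARG00000070971 and ENSDARG00000062909), fell, by 1.55 and 1.48 on the log2 scale (edgeR adjusted p = 0.00937 and 0.0174), and neither was called without TMM factors (0.13 and 0.232). The second of these calls was also lost without ATG5 replicate 1 or 3 or WT replicate 1 or 3. The endoplasmic reticulum chaperone gene HSPA5 rose by 1.67 ± 0.33 (adjusted p = 0.0131), a call that ended without WT replicate 1 (0.0537). SURF4, a cargo receptor gene for secreted proteins, rose by 0.76 ± 0.17 (adjusted p = 0.019), a call that ended without ATG5 replicate 1 or WT replicate 1 or 2.

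**Figure D4:**
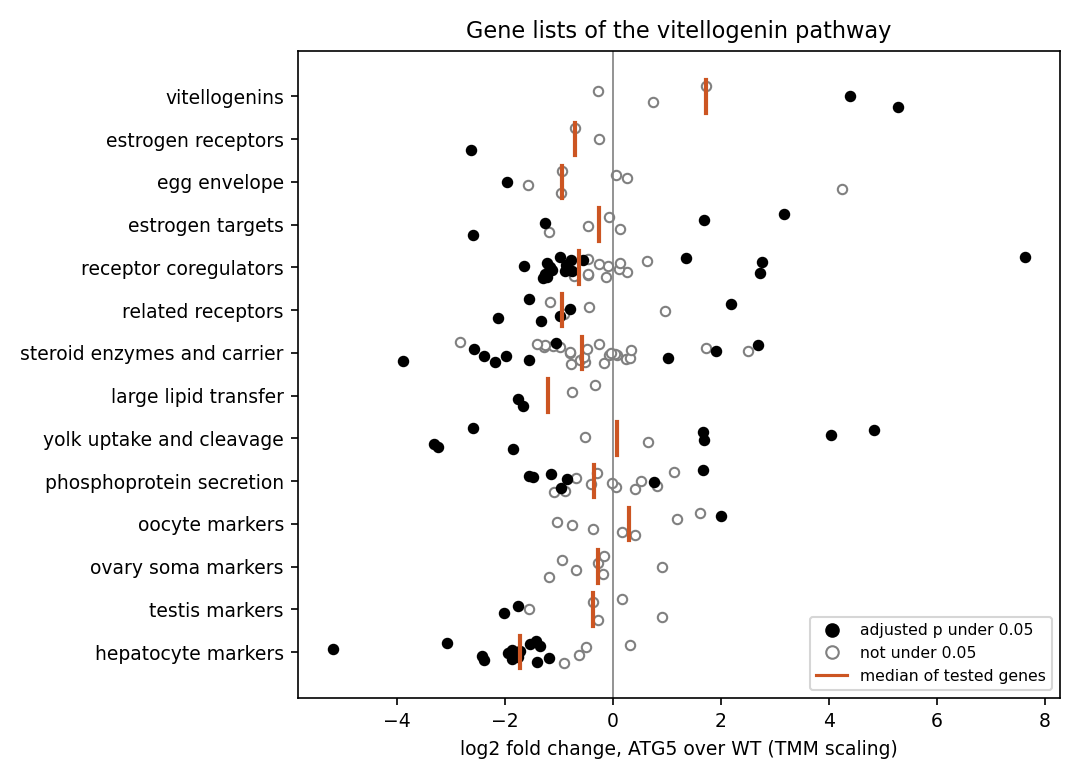
Log2 fold change of ATG5 over WT (TMM scaling) for each tested gene of 14 lists; filled points passed the edgeR test at an adjusted p under 0.05, open points did not, and the bar is the median of the tested genes. Among the vitellogenins vtg1 and vtg4 are filled on the right, esr1 is the filled point on the left among the receptors, and 15 of 19 hepatocyte markers are filled on the left.

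Egg envelope genes encode zona pellucida proteins, which in zebrafish are known mainly from the ovary. Of 20 such genes, 7 were tested, of which 1 fell and 0 rose, against 13.2% and 17.3% of all genes. Of the 20, 5 had no count in any library and 19 stayed below 2 CPM in every library. The exception was zp3b, singled out after its values were seen. It had counts of 44, 1315 and 22 in ATG5 and 15, 11 and 10 in WT, or 26.6 CPM in ATG5 replicate 2 and at most 0.82 CPM in the other 5 libraries. A single library therefore held the signal, and the log2 fold change of 4.25 ± 1.65 did not pass the test (edgeR adjusted p = 0.0985). Without ATG5 replicate 2 it was 0.39 (adjusted p = 0.655), and without TMM factors it was 5.22 and called (adjusted p = 0.0379). With 3 ATG5 libraries and 2 WT libraries over the filter's minimum, zp3b needed ATG5 to pass. The 1 gene that fell, zp3d.2, had counts of 21, 21 and 20 in WT and 15, 2 and 9 in ATG5 (log2 fold change -1.96 ± 0.59, adjusted p = 0.0481). With 1 ATG5 library and 3 WT libraries over the filter's minimum, it needed WT to pass. Without TMM factors zp3d.2 was not called (0.129), and 2 of the 7 rose and 0 fell, against 53.3% and 2.84% of all genes. Nor was zp3d.2 called without ATG5 replicate 2 or 3 or any 1 of the WT libraries.

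**Figure D5:**
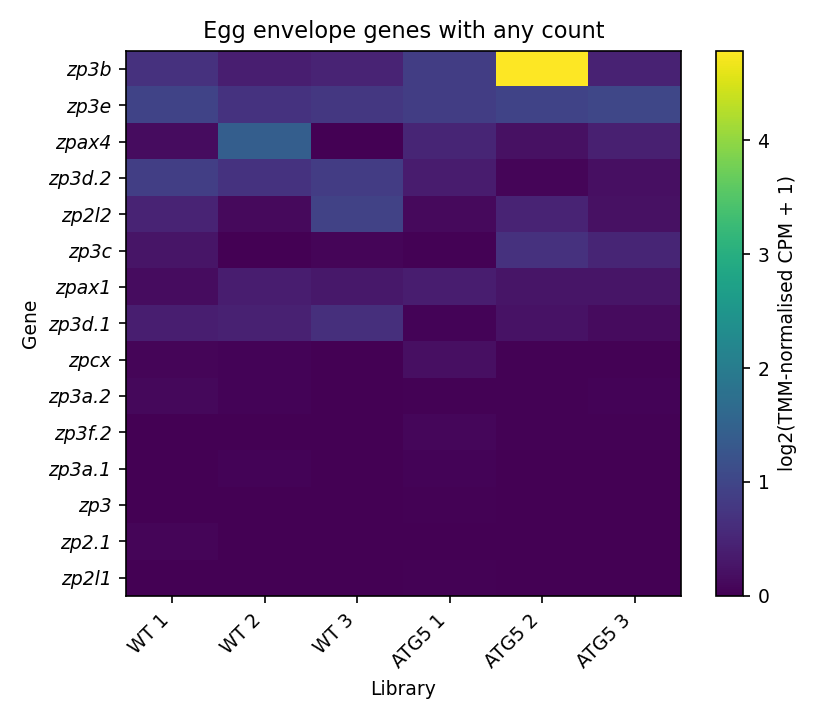
Levels of the egg envelope genes with any count, as log2(TMM-normalised CPM + 1), in each library; genes are ordered by total count. The bright cell is zp3b in ATG5 replicate 2, at 26.6 CPM.

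Defining gonad markers ranged from absent to moderate. Of the defining oocyte markers GDF9 and figla had no count in any library, and the highest count of buc, ZAR1 and bmp15 in any library was 18, 13 and 11. For DDX4 and DAZL, defining oocyte markers too, it was 38 and 14, both in WT libraries, while those of buc and ZAR1 were in ATG5 libraries. The summed level of the 23 oocyte markers was 9.0 to 14.7 CPM in ATG5 and 4.40 to 14.4 CPM in WT, with ATG5 replicate 2, the library with zp3b, at 11.1 CPM. Of 8 tested, 1 rose and 0 fell (median 0.30), against 17.3% and 13.2% of all genes. Without TMM factors 3 rose (median 1.22), against 53.3%. The 1 that rose was pou5f3, a pluripotency factor gene, at 0.421 ± 0.154 against 0.0665 ± 0.0461 CPM (edgeR adjusted p = 0.0296), whose call was lost without ATG5 replicate 1 or 3 or WT replicate 1 or 3. It had 1, 4 and 1 counts in WT and passed the filter through the ATG5 libraries only. Of the ovary soma markers FSHR and both FOXL2 genes had at most 3 counts in any library. None of the 7 tested was called, against 30.6% of all genes (median -0.27, turning to 0.59 without TMM factors). The most abundant were not low. INHBA (ENSDARG00000024759), for an activin subunit, stood at 20.7, 9.42 and 41.8 CPM in WT and 17.0, 17.4 and 10.5 CPM in ATG5 (adjusted p = 0.372). For gsdf the levels were 1.68, 5.71 and 3.25 CPM in WT and 11.5, 1.44 and 7.26 CPM in ATG5 (adjusted p = 0.406), and in both genes the groups overlapped. Of 7 tested testis markers 2 fell and 0 rose (median -0.35), against 13.2% and 17.3% of all genes. Without TMM factors the median turned to 0.59 and none was called, against 2.84% lower and 53.3% higher. DMRT1, a testis transcription factor gene, had counts of 21, 48 and 15 in WT and 4, 12 and 17 in ATG5 (adjusted p = 0.0396), and the cilium gene TEKT1 had a log2 fold change of -1.75 ± 0.52 (adjusted p = 0.0461). Both calls were lost under 9 of 15 alternatives, among them leaving out any ATG5 library or WT replicate 1 or 2 and, for DMRT1, WT replicate 3. DMRT1, with 2 ATG5 libraries and 3 WT libraries over the filter's minimum, needed WT to pass.

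The level of the vitellogenin sum over the 6 libraries was followed most closely by NPEPPS, sgk2b, xkr5b, AP4S1 and ZNF609, with Pearson r of log2 CPM of 0.984, 0.972, 0.969, 0.964 and 0.964. They were the highest of 10167 genes with a mean of at least 5 CPM and a symbol, and the 6 libraries share their groups and scaling factors, so the values only describe these libraries. NPEPPS, a cytosolic aminopeptidase gene, stood at 35.1, 32.9 and 43.1 CPM in WT and 19.4, 44.5 and 44.1 CPM in ATG5. As in the sum, ATG5 replicate 1 was the lowest library.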

How the data were processed

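The authors deposited 1 table of estimated counts per gene, which are not all whole. FastQC 0.11.5, kallisto 0.45.0 with sleuth 0.30.0, and GRCz11 as the build are named in the submitters' processing notes. Strand setting and step order are not given in the sources used here. The kit was stranded, per the labels' protocols. Columns were matched to samples by description, and 23608 genes had a symbol.

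After rounding, library totals were 33668921 to 44763213. TMM factors were 1.33 to 1.47 in ATG5 and 0.684 to 0.763 in WT. The limit of 3 counts was 0.0503 to 0.12 TMM-normalised CPM, for counting error only. No 2 libraries of a group agreed within sampling noise (chi-square per degree of freedom 101.5 to 186). Genes passing filterByExpr were fitted with edgeR 4.0.16 in R 4.3.3 (glmQLFit, glmQLFTest, group only, prior count 2, Benjamini-Hochberg adjustment over all tested genes). Standard errors are those implied by the F statistic. The steps were tested on simulated data with few changed genes, in both directions. That test could not check the scaling where many genes differ, as they do here. In 14 lists, some sharing genes, 228 of 249 symbols matched.

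The members, lists and tests were chosen with earlier results of these data known. The rule for named genes took all members, up to 4 called genes per list by smallest p (or the 2 most abundant where none was called), and the 5 genes most like the vitellogenin sum. Not every gene the rule took is reported here. VLDLR, shbg, PGR, GREB1, fabp10a, HNF4A, apobb.2, MTTP, zp3b, vtg8 and the defining gonad markers were added after their values were seen. Alternatives were RLE factors, no TMM factors, TMM factors without the 50 most abundant genes and the vitellogenins, 2 other filters, DESeq2 1.42.0, limma-voom (limma 3.58.1), a block for replicate number, 0.5 as prior count, and each library left out, with the testis sum without gsdf added after seeing the data.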

Additional observations from a re-analysis of the deposited data

How the results depend on the processing

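The call of esr1 held under all 15 alternatives, that of vtg1 under 14 and that of vtg4 under 11. Without TMM factors, 10853 genes were higher and 578 lower, against 3529 and 2698 with TMM scaling, the median log2 fold change of all genes moved from 0.03 to 0.95, the vitellogenin sum turned from -0.18 to 0.78, and the log2 fold changes of vtg5, ENSDARG00000016454 and ENSDARG00000034181 turned to 0.69, 0.70 and 0.24. Leaving out 1 library, that of vtg5 ran from -0.67 to 0.14, above 0 without ATG5 replicate 1 (0.14) or WT replicate 3 (0.01), that of vtg3 from 0.21 to 1.13 and that of vtg7 from 0.64 to 3.87. With limma-voom 0 members were called higher, at log2 fold changes of 5.07 for vtg1 and 5.05 for vtg4 (edgeR and DESeq2 called 2), and the cause was not tested. Leaving out 1 library gave 2218 to 2791 genes higher and 1583 to 2071 lower, with 2218 and 1583 without WT replicate 1 and 2312 and 1614 without ATG5 replicate 1, 1 to 2 members higher, 1 to 2 lower, and a vitellogenin sum of -0.57 to 0.22. Fewer samples enter those fits. The replicate numbers did not pair the libraries: deviations of same-numbered libraries correlated at -0.0442, -0.0923 and 0.023. With the replicate block 2253 genes were higher and 1636 lower. Calls of vtg1, vtg4 and esr1 did not change, at edgeR adjusted p of 0.0189, 0.05 and 0.0148. That of vtg4 was under the threshold only before rounding. The calls of CTSD, HSPA5, SURF4, PGRMC1, pou5f3, zp3d.2, FURIN (ENSDARG00000062909), DMRT1 and TEKT1 did not hold with the replicate block. Depth limits vtg6, with no count, vtg2, with at most 6 counts in a WT library, and the 12 egg envelope genes with at most 10 counts in every library.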
